A study of Mus musculus with 14 samples.

Results

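RNA-SEQ of P2 mouse brains was used here to describe 9 genes of polysialic acid synthesis and neural cell adhesion. They are the sialyltransferases St8sia2, St8sia4 and St8sia3, the carrier Ncam1, its relative Ncam2, and the L1 family members L1cam, Chl1, Nrcam and Nfasc. They were chosen by gene symbol, and all 9 were found among the 17927 genes of the deposited count table. The brains came from 7 WT and 7 Capn15 KO mice, untreated, taken at postnatal day 2 from 6 litters. The study's mouse lines were made in C57BL/6J, and the allele that the Capn15 KO brains carried is not given in the sources used here. The WT group held 2 females and 5 males, and the Capn15 KO group 4 females and 3 males. Each Capn15 KO brain had a WT partner of its litter with the same replicate number, 6 of the 7 pairs were of opposite sex, and litter B held 2 pairs. Apart from these pairs, no label tells whether samples were prepared separately, so that p-values measure the spread between these brains. The question for each member was whether its mRNA differed between the genotypes, and how it varied between litters and sexes.

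Polysialic acid is a long, negatively charged sugar chain that the enzymes encoded by St8sia2 and St8sia4 build on the neural cell adhesion molecule Ncam1. The chain weakens adhesion and is known from the developing brain, where migrating neurons and growing axons carry it. The product of St8sia3 makes mainly short chains on other carriers. Ncam2 is a relative of Ncam1, and the L1 family members are adhesion molecules of the immunoglobulin superfamily that guide axons and attach to the cytoskeleton through ankyrins.

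Values are CPM, the counts of a gene in proportion to the counts of its library, scaled with TMM factors. The libraries held between 37620954 and 70910163 counts, and every member was counted in every library, with 1585 counts for the lowest value and 92263 for the highest. Capn15 itself was at 25.4 ± 3.07 CPM in WT (SD, n = 7) and at 14.5 ± 2.67 CPM in Capn15 KO (SD, n = 7), lower in 6 of the 7 pairs. Its log2 fold change was -0.81 (edgeR quasi-likelihood test, FDR = 0.0747), and it passed the cut off of 0.05 with edgeR's likelihood ratio test (FDR = 1.8e-07) and with DESeq2 (adjusted p = 0.00535). In litter F it went against the labels, at 18.7 CPM in the library labelled WT replicate 7 and 20.2 CPM in the library labelled Capn15 KO replicate 7. Without these 2 libraries its log2 fold change was -0.98 (edgeR quasi-likelihood test, FDR = 1.58e-06). Values without them stand beside those results below that were computed again and changed. The labels call the cells neurons, but markers of other brain cells were counted in every library: the summed level of 5 radial glia and astrocyte markers was between 1363 and 1919 CPM in WT, and that of 4 markers of mature oligodendrocytes between 92.3 and 246 CPM. In whole brain RNA, fewer cells of a type and less RNA per cell cannot be told apart.

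Apart from Nfasc, the adhesion molecules had higher levels per exon length than the enzymes. Per kilobase of merged exon, which allows genes to be compared, Ncam1 was highest in WT brains at 148 ± 8.46 CPM per kb (SD, n = 7). Chl1 followed at 80.4 ± 4.24 CPM per kb, L1cam at 54.9 ± 4.65, Nrcam at 30.2 ± 1.02 and Ncam2 at 16.9 ± 1.29 on the same scale. The ranges of neighbours in this order did not overlap, down to the step from Ncam2 to St8sia3. Below it, St8sia3 (9.05 ± 0.575 CPM per kb), St8sia2 (8.69 ± 1.28), Nfasc (8.07 ± 0.849) and St8sia4 (6.48 ± 0.372) lay close together, and the ranges of neighbours overlapped. St8sia4, with 20091 bases of merged exon, had the higher CPM of the 2 enzymes that polysialylate Ncam1, and St8sia2, with 5384 bases, the higher CPM per kb. The length includes every annotated exon, so that a gene with long exons that the brain does not use is placed too low. The exons of L1cam overlap those of Arhgap4 on the same strand, and how reads were divided between them is not given in the sources used here, so that its level is uncertain.

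**Figure D1:**
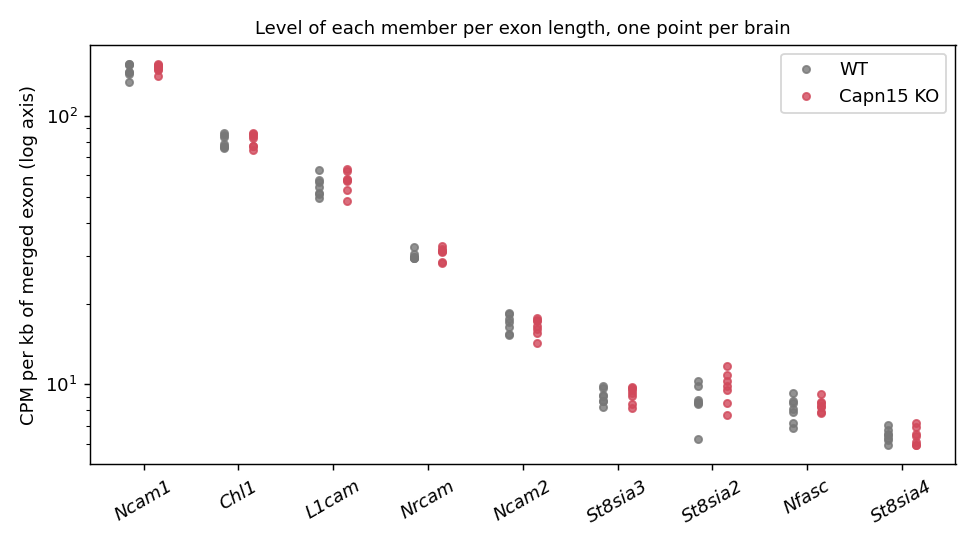
Level of each of the 9 members in CPM per kilobase of merged exon (log axis), with 1 point per brain, WT in grey and Capn15 KO in red. Ncam1 was highest at 148 CPM per kb in WT, and the 3 sialyltransferases and Nfasc lay between 6.48 and 9.05 CPM per kb.

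No member passed the FDR cut off of 0.05 between the genotypes (0 of 9; edgeR quasi-likelihood test with litter and sex; 0.00558% of all genes passed). St8sia2 had the largest difference of the 9 and was higher in Capn15 KO, and the other 8 differed by at most 5.34% in either direction in the fit. At an unadjusted p under 0.05 there were 2 members, St8sia2 and L1cam, both higher in Capn15 KO, and the FDR of the 7 others was 0.99996 (5.14% of all genes passed in either direction and 2.88% as higher in Capn15 KO). The log2 fold change was above 0 for 8 members and below 0 for Ncam2 (51.4% of all genes were above 0), but St8sia4, at 0.00063, fell below 0 with DESeq2 size factors, upper quartile factors and library totals. The median log2 fold change was 0.04 over the members and 0.0015 over all genes. For no member did the values of the 2 groups stand apart (0 of 9; 0.00558% of all genes), and by the exact permutation test of 7 against 7, which leaves litter out, none had an unadjusted p under 0.05 (1.73% of all genes).

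**Figure D2:**
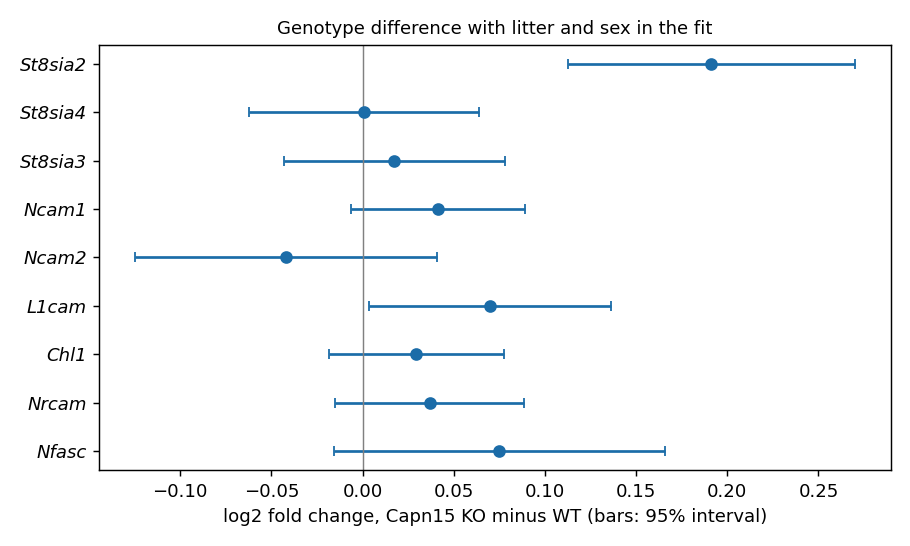
Log2 fold change of each member, Capn15 KO minus WT, from the edgeR quasi-likelihood fit with litter and sex, over 7 WT and 7 Capn15 KO brains; bars are 95% intervals. The interval lies above 0 for St8sia2 (0.11 to 0.27) and L1cam (0.0035 to 0.14), and those of the other 7 members include 0.

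St8sia2 (ENSMUSG00000025789, chr7:73939119-74013690, minus strand, GRCm38) encodes the polysialyltransferase that acts mainly before and shortly after birth. In WT its level was lowest at 33.8 CPM, with a median of 46.4 and a highest value of 55.5 CPM. In Capn15 KO the lowest value was 41.5 CPM, the median 53.1 and the highest 62.9 CPM. The groups overlapped, with 2 of the 7 Capn15 KO brains above every WT brain, and litters B and F held the highest and the lowest value of both genotypes. Within litters the level moved from 45.8 to 51.2 CPM in litter A (WT to Capn15 KO), from 52.9 to 58.6 and from 55.5 to 62.9 in litter B, from 45.7 to 55.3 in litter C and from 46.4 to 53.1 in litter D. In litter E it moved the other way, from 47.2 to 46.0 CPM, and in litter F it went from 33.8 to 41.5 CPM. It was thus higher in Capn15 KO in 6 of 7 pairs, a count that 5.82% of all genes reached or exceeded, while 0.496% were higher in all 7.

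With litter and sex in the fit the difference in St8sia2 was 0.19 on the log2 scale (SE 0.0365), or 14.2% with a 95% interval of 8.14 to 20.6%. Its unadjusted p was 0.000131, the rank 12 among all genes, and its FDR was 0.176 by edgeR's quasi-likelihood test. The tests disagreed on the call. St8sia2 passed with edgeR's likelihood ratio test (FDR = 0.00308; 1 of 9 members, 0.19% of all genes) and with DESeq2 (adjusted p = 0.0148; 1 of 9 members, 0.139% of the 15841 genes to which it gave an adjusted p), with fold changes of 0.19 in both. The study lists St8sia2 among its differential mRNAs from these same brains, so none of this is independent evidence of its direction. The log2 fold change that the study gives for St8sia2 is larger than the fitted values here. The fall it gives for Capn15 is also larger, and the reason was not tested. Without the litter term the spread between litters entered the error, and the unadjusted p was 0.104 with genotype alone (edgeR; log2 fold change 0.17) and 0.162 by the exact permutation test. The exact sign-flip test over the 7 pairs gave p = 0.0313, against a smallest possible value of 0.0156 (1 of 9 members passed, 3.55% of all genes). This test does not adjust for sex, which differed within 6 of the 7 pairs. Without the brains of litter F the log2 fold change was 0.17, the quasi-likelihood FDR 0.37 and the exact sign-flip p 0.0625, with 5 of 6 pairs higher and a smallest possible p of 0.0313. In these remaining libraries the likelihood ratio test still called St8sia2 (FDR = 0.0328; 0.206% of all genes), and DESeq2 did not (adjusted p = 0.131).

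**Figure D3:**
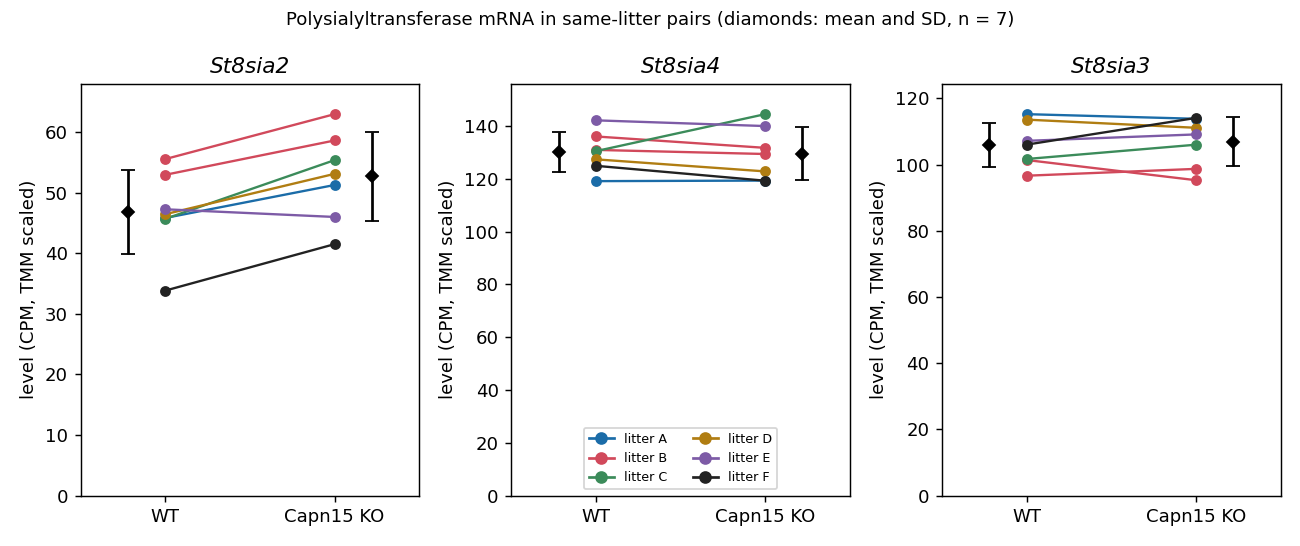
Level of St8sia2, St8sia4 and St8sia3 in CPM (TMM scaled; each axis starts at 0), with a line for each of the 7 pairs, coloured by litter, and diamonds with bars for the mean and SD of each genotype. St8sia2 was higher in Capn15 KO in 6 of the 7 pairs, St8sia4 in 2 and St8sia3 in 4.

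St8sia4 (ENSMUSG00000040710, chr1:95587682-95667571, minus strand) encodes the other enzyme that polysialylates Ncam1. It lay between 119 and 142 CPM in WT, with a median of 130.4 CPM, and between 119 and 144 CPM in Capn15 KO, with a median of 129.4 CPM. The groups covered the same range, and 2 of 7 pairs were higher in Capn15 KO. The fitted difference was 0.00063 on the log2 scale (SE 0.0294), with a 95% interval of -4.24 to 4.52%. St8sia3 (ENSMUSG00000056812, chr18:64254359-64279611, plus strand) lay between 96.6 and 115 CPM in WT (median 106.0) and between 95.3 and 114 CPM in Capn15 KO (median 109). Its groups also overlapped, 4 of 7 pairs were higher in Capn15 KO, and the interval of its difference ran from -2.95 to 5.56%. Exons of St8sia3 and of Ncam1 overlap genes on the opposite strand (St8sia3os and Gm11149), and without a known strand setting their reads cannot be told apart.

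Because the 2 enzymes build the same chain, their balance within a library was compared, which needs no scaling between libraries. There were 35.6 counts of St8sia2 for every 100 counts of St8sia4 in WT (range 27.1 to 42.4) and 40.4 in Capn15 KO (range 32.9 to 48.7). The ranges overlapped, with 4 Capn15 KO brains above every WT brain. The log2 difference was 0.18, with p = 0.126 by the exact permutation test and p = 0.0313 by the exact sign-flip test over the pairs, and the ratio was higher in 6 of 7 pairs. Against its carrier, St8sia2 had 3.62 counts per 100 counts of Ncam1 in WT (range 2.93 to 4.15) and 3.998 in Capn15 KO (range 3.39 to 4.73). This log2 difference was 0.14, with p = 0.143 by the exact permutation test and p = 0.0469 by the exact sign-flip test, again higher in 6 of 7 pairs. Both ratios passed 0.05 only where the litter pairs were kept and litter F was included. Without litter F the log2 differences were 0.15 for the ratio to St8sia4 (exact permutation p = 0.145, exact sign-flip p = 0.0625) and 0.13 for that to Ncam1 (exact permutation p = 0.11, exact sign-flip p = 0.0938). The pairs of litter B are not 2 separate litters, and 6 of the 7 pairs were of opposite sex. These sign-flip tests take neither into account.

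The promoters of the 2 enzymes are shown because both build polysialic acid on Ncam1. Whether these sequences bear on the levels in litters and pairs was not tested. Each sequence runs 5′ to 3′ from 250 bases before to 50 bases after the start of a RefSeq transcript (GRCm38.p6), at chr7:74013633-74013932 on the minus strand for St8sia2 and chr1:95667545-95667844 on the minus strand for St8sia4. Capitals mark the GC box, searched as GGGCGG on both strands, so that it reads CCGCCC where it lies on the other strand.
St8sia2: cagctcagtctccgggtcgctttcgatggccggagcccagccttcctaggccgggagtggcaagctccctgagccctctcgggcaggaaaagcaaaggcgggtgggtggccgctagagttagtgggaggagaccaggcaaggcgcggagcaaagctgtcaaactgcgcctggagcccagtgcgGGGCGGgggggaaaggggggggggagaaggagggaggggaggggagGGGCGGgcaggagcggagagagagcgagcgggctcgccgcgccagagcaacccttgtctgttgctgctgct
St8sia4: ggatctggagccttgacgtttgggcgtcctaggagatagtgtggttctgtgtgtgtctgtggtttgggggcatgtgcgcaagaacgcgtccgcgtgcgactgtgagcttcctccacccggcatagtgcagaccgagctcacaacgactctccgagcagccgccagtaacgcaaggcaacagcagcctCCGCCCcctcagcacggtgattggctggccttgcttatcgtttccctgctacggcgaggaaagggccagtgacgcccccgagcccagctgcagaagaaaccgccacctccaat
The St8sia2 promoter held 2 GC boxes, 20 CpG dinucleotides and 68.7% G and C, and that of St8sia4 held 1 GC box, 22 CpG dinucleotides and 61.3% G and C. Of 32851 promoters of this length 35.7% held a GC box, the median promoter had 7 CpG dinucleotides, and the median G and C content was 52.7%. Neither sequence held TATAAA or its reverse complement, which 13.6% of promoters hold, nor CACGTG, which 7.15% hold. These matches describe the letters of the window, and no binding or methylation was measured.

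Ncam1 (ENSMUSG00000039542, chr9:49502136-49798925, minus strand), the main carrier of polysialic acid, was at 1280 ± 73.3 CPM in WT and 1307 ± 42.1 CPM in Capn15 KO (SD, n = 7 each). WT values ran from 1155 CPM in litter F to 1355 CPM and Capn15 KO values from 1225 CPM in litter F to 1352 CPM, so that the groups overlapped almost fully. The log2 fold change was 0.04 (SE 0.0222), with an interval of -0.44 to 6.36%, and 4 of 7 pairs were higher in Capn15 KO. Ncam2 (ENSMUSG00000022762, chr16:81200697-81626828, plus strand) was the member below 0. It lay between 173 and 209 CPM in WT and between 161 and 199.6 CPM in Capn15 KO, and 4 of 7 pairs were lower in Capn15 KO. Its log2 fold change was -0.04 (SE 0.0385), with an interval of -8.27 to 2.86%. With 1 library left out it ranged from -0.10 (WT or Capn15 KO replicate 4, litter C) to 0.02 (WT or Capn15 KO replicate 5, litter D). A brain left alone in its litter adds nothing to the genotype difference of this fit, so that leaving out either brain removes the pair.

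Of the L1 family, L1cam (ENSMUSG00000031391, chrX:73853778-73896105, minus strand), which guides growing axons, had the smallest p. Its WT values ran from 364 to 463 CPM with a median of 398, and its Capn15 KO values from 356 to 468 CPM with a median of 426. The Capn15 KO brains held both the highest and the lowest value, and 5 of 7 pairs were higher in Capn15 KO. The log2 fold change was 0.07 (SE 0.0309, FDR = 0.959 by edgeR's quasi-likelihood test), and without litter F it was 0.05 and its unadjusted p no longer under 0.05. The exact permutation p was 0.385. Chl1 (ENSMUSG00000030077, chr6:103510586-103750211, plus strand), the close homolog of L1, was at 989 ± 52.1 CPM in WT and 999.6 ± 59.3 CPM in Capn15 KO, with an interval of -1.28 to 5.52%. Nrcam (ENSMUSG00000020598, chr12:44328885-44601964, plus strand), found at nodes of Ranvier and on growing axons, was at 404 ± 13.7 and 411 ± 22.3 CPM, with an interval of -1.02 to 6.33%. Both genes were higher in Capn15 KO in 5 of 7 pairs, and their groups overlapped.

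Nfasc (ENSMUSG00000026442, chr1:132564690-132741797, minus strand) encodes neurofascin, which assembles nodes and the axon initial segment. It was at 114 ± 12.01 CPM in WT and 118 ± 6.70 CPM in Capn15 KO (SD, n = 7 each), higher in Capn15 KO in 4 of 7 pairs. The widest gap was in litter F, from 97.1 CPM in the library labelled WT to 120.4 CPM in the one labelled Capn15 KO. With all libraries the log2 fold change was 0.08 (SE 0.0423), and without litter F it was 0.03.

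Most members differed between litters. The litter terms passed the FDR cut off for 8 of 9 members (edgeR quasi-likelihood test; 29.6% of all genes passed), all but Ncam2 (FDR = 0.0567). With all litters St8sia2 had the widest spread, from a mean of 37.7 CPM in litter F through 46.6 in E, 48.5 in A, 49.8 in D and 50.5 in C to 57.5 CPM in litter B. This is a range of 0.61 on the log2 scale (1.53-fold, litter FDR = 0.00012). The genotype difference of 0.19 is a fitted difference between 2 groups, so that it is not a like measure to this range of 6 unadjusted litter means. The other members ranged between 0.16 (Nrcam) and 0.31 (L1cam) on the log2 scale. They did not share an order: litter B was highest for St8sia2 but lowest for St8sia3, Ncam2, L1cam and Nrcam, and litter A was highest for St8sia3, Ncam1, Ncam2 and all 4 L1 family members. Without litter F the range of St8sia2 was 0.30 (litter E to litter B), beside 0.31 for L1cam and 0.30 for Nfasc, so that it no longer stood apart. Litter then passed for 7 of the 9 members (27.5% of all genes), with St8sia2 still among them (FDR = 0.00409) and Ncam1 no longer (FDR = 0.261).

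**Figure D4:**
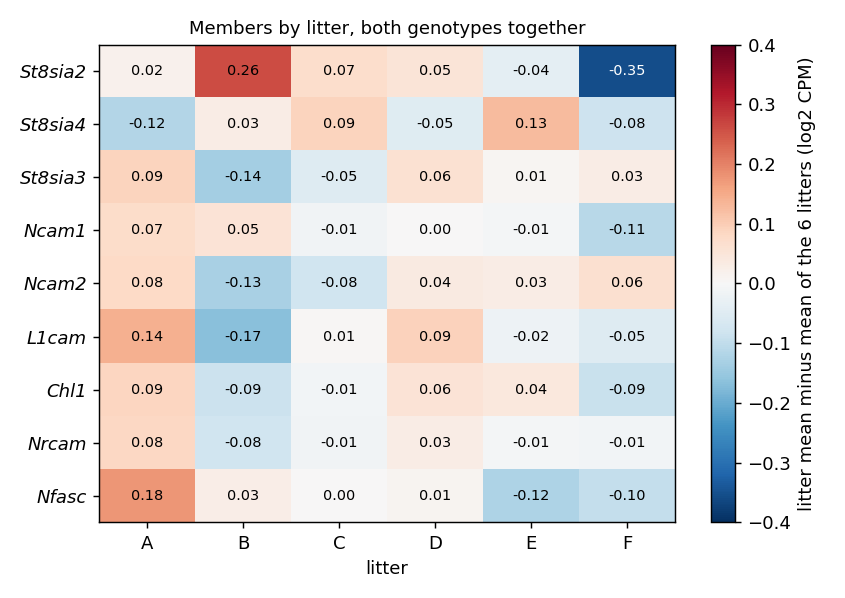
Mean log2 CPM of each member (vertical axis) in each of the 6 litters (horizontal axis), both genotypes together, as the difference from the mean of the 6 litters; red is higher and blue lower. Litter B holds 4 brains and the others 2 each. St8sia2 spans 0.61 on the log2 scale from litter F to litter B, and the other members span 0.16 to 0.31; without litter F it spans 0.30.

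Cell type markers moved with St8sia2 in some litters. The summed level of 6 markers of immature and migrating neurons (Dcx, Sox11, Dlx1, Dlx2, Dlx5 and Neurod6) was lowest in litter F at 1151 CPM and highest in litter B at 1771 CPM, with litter C second at 1540 CPM, as for St8sia2. The litters between did not keep its order: E was at 1488, D at 1314 and A at 1279 CPM, while St8sia2 was lower in E than in D or A. With litter F left out, the lowest litter was A for the markers and E for St8sia2, so that the shared low end rests on litter F. The 4 markers of mature oligodendrocytes ran the other way, from 104 CPM in litter B to 260.5 CPM in litter F. So did the 5 radial glia and astrocyte markers, from 1484 CPM in litter B to 1853 CPM in litter F. No other marker list had litters B and F at its ends. Between genotypes, the sum of the immature neuron markers was between 1119 and 1892 CPM in WT and between 1184 and 1810 CPM in Capn15 KO, higher in Capn15 KO in 6 of 7 pairs. Of its 6 genes 0 passed the FDR cut off and 3 had an unadjusted p under 0.05 as higher in Capn15 KO (0.00558% and 2.88% of all genes; edgeR; Dcx 0.08, Dlx1 0.11 and Dlx2 0.20 on the log2 scale). None of the 6 was at 0 in any library. The sum of the radial glia and astrocyte markers was between 1363 and 1919 CPM in WT and between 1473 and 1786 CPM in Capn15 KO. It was higher in Capn15 KO in 1 of 7 pairs. Of its 5 genes 0 passed the FDR cut off and 1, Gja1 (-0.13), had an unadjusted p under 0.05 (edgeR; 5.14% of all genes in either direction). The sum of 5 choroid plexus markers was lower in Capn15 KO in all 7 pairs, between 726 and 959 CPM in WT and between 594 and 828 CPM in Capn15 KO. Most of this sum was Ttr, at a mean of 846 CPM in WT beside 879 CPM for the sum. Of the 5 genes 0 passed the FDR cut off and 4 had an unadjusted p under 0.05 as lower in Capn15 KO (edgeR; 5.14% of all genes in either direction). These were Ttr (-0.32 on the log2 scale), Kcnj13 (-0.31), Clic6 (-0.27) and Folr1 (-0.17). The study lists Ttr among its differential mRNAs from these same brains. The share of all genes lower in most or all of the 7 pairs was not counted. The part of any of these cell types in the difference of St8sia2 was not tested.

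No difference between the sexes was detectable. No member passed for sex (0 of 9; edgeR quasi-likelihood test; 0.0669% of all genes passed), and none had an unadjusted p under 0.05 (5.04% of all genes). The effects, as male minus female, ranged from 0.01 for Ncam2 to 0.07 for St8sia2 (SE 0.0393) on the log2 scale. The genotype difference did not pass the test of a difference between the sexes for any member (0 of 9; 0.00558% of all genes). Nfasc alone had an unadjusted p under 0.05 there, with a log2 difference of 0.56 (SE 0.183, edgeR FDR = 0.55; 6.85% of all genes had such a p). Since the other 6 pairs were of opposite sex, this term can be estimated through litter F alone.

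In their variation the members did not form 1 group. As a description over 14 libraries, which share litters and depth, log2 CPM of L1cam and Nrcam had a Pearson r of 0.87 and St8sia3 and Nrcam one of 0.86, while St8sia2 had 0.78 with Ncam1, 0.29 with St8sia4 and -0.60 with Ncam2. St8sia2 and Ncam1 were both lowest in litter F in each genotype, and no correlation was computed without that litter. After genotype, litter and sex were removed, which leaves 6 degrees of freedom, the r of St8sia2 with Ncam1 was -0.32, and the highest among members was 0.88 for Ncam1 and Nfasc. The 5 genes most like St8sia2 on that scale, among 15226 genes, were Cradd (0.99), Ica1l (0.95), Fbxl7 (0.95), Spag6l (0.95) and Fut10 (0.94). These are the largest of 15226 correlations on 6 degrees of freedom, and no chance level was computed for them. The SD of St8sia2 was 14.7% of its mean in WT, and 8.62% without WT replicate 7, when L1cam and Nfasc were at 8.76% and 8.77%. The median of the 9 members over all WT brains was 6.35%, against a median of 8.15% over the 15227 genes with a mean of at least 1 CPM. These sets differ in level, since the lowest member mean in WT was 46.8 CPM (St8sia2). Genes of like level were not compared.

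The other genes of the pathway showed no call in either direction. Of 67 listed genes 66 were measured, all but Ccr7, and 0 passed the edgeR quasi-likelihood test (0.00558% of all genes), the likelihood ratio test (0.19%) or DESeq2 (0.139% of the genes it adjusted). The quasi-likelihood test gave 7 of the 66 an unadjusted p under 0.05, 5 as higher and 2 as lower in Capn15 KO (5.14% of all genes in either direction and 2.88% as higher). The 9 genes of sialic acid supply and removal, among them Cmas, which activates sialic acid, had log2 fold changes between -0.15 and 0.0013 with a median of -0.02, and 1 of 9 was above 0. Of the other 3 sialyltransferases of the St8sia family, St8sia1, which makes gangliosides, was 0.08 higher on the log2 scale (edgeR FDR = 0.959). The other measured carriers of polysialic acid, Cadm1 and Nrp2, were at 0.02 and 0.03.

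Among partners of the adhesion molecules, 7 of the 9 ankyrins, spectrins and other cytoskeletal anchors were above 0, with a median of 0.02. Ank3, the ankyrin of the axon initial segment, was at 391 CPM in WT and 416 CPM in Capn15 KO, a log2 fold change of 0.14 (edgeR FDR = 0.765). Ank2 was at 0.09 (edgeR FDR = 0.935). The 10 contactins and partners had a median of 0.0093 and no unadjusted p under 0.05. Of 16 other adhesion molecules, Alcam (-0.05, edgeR FDR = 0.911) and Mcam (-0.09, edgeR FDR = 0.959) had an unadjusted p under 0.05. Of 11 signalling partners, Plxna1, a semaphorin receptor, was at 0.08 (edgeR FDR = 0.729) and Dcx, a microtubule protein of migrating neurons, at 0.08 (edgeR FDR = 0.857). Of the 6 proteases that can shed these molecules 1 was above 0, and their median was -0.03.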

How the data were processed

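Capn15 KO mice (7 brains) were compared with WT mice (7 brains) at P2. Reads were trimmed, aligned to GRCm38 and assigned to genes by the authors, who deposited counts per gene for 17927 genes without normalization, 1 column per brain. The paper's methods and the labels name different counting tools and library kits. The annotation release, strand setting and gene filter are not given in the sources used here. Groups followed the labelled genotype; litter and sex are part of each column's name. 0 columns of sample values were left unused. Total counts lay between 37620954 and 70910163 per library. Between any 2 libraries the chi-square per gene was at least 4.66, and none was treated as a copy. A count floor of 3 was 0.0797 CPM in the smallest library, and covers counting error only.

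Counts were tested with edgeR 4.0.16 in R 4.3.3 (quasi-likelihood test, TMM factors, genotype, litter and sex as in the study's model, all genes with at least 1 count, Benjamini-Hochberg FDR over 17927 genes, threshold 0.05). The likelihood ratio test, DESeq2 1.42.0, limma 3.58.1, other scalings, filters, covariates and each library left out were alternatives. Intervals at 95% used the fit's standard errors. Log2 CPM values used a prior count of 2. Exact permutation tests used 3432 regroupings (smallest p 0.000583) and exact sign-flip tests 128 sign patterns, both two-sided, in Python 3.11.15 with scipy 1.17.1. Figures used matplotlib 3.10.9. The tests were checked on simulated data. Same-numbered brains share a litter by their column names. The deviations of such pairs from the group means correlated at 0.123 on average (-0.467 to 0.443 over 15227 genes). Positions and exon lengths came from GENCODE M21, in which 17909 genes were found, and promoters from RefSeq, which had entries for 7 of the members.

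The members and lists were chosen with earlier results of these data known. The genes named are Capn15, the members, up to 2 genes of each pathway list with the smallest unadjusted p under 0.05, the 5 genes most like St8sia2 by correlation of residuals, and cell type markers. Cmas, Cadm1, Nrp2, Ccr7 and genes named for an overlap were named outside this rule, after their values were seen. Settings without litter F for the likelihood ratio test, DESeq2, the litter terms and ranges, the SD in WT and the sign-flip tests were chosen after seeing the data.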

Additional observations from a re-analysis of the deposited data

Results flagged for a closer look

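In 24 groups of 7 values (log2 values of the 9 members, Capn15 and the 2 ratios in each genotype), 4 held a library whose gap to its nearest neighbour, divided by the range of the group, exceeded Dixon's critical value at 95%, where chance gives 1.2. St8sia2 was lowest in WT replicate 7, at 5.08 against 5.51 log2 CPM for the next brain (gap over range 0.606). Nrcam was highest in WT replicate 1, at 8.76 against 8.68 log2 CPM (0.584). Capn15 was lowest among WT libraries in the one labelled WT replicate 7, at 4.23 against 4.64 log2 CPM (0.761), and highest among Capn15 KO libraries in the one labelled Capn15 KO replicate 7, at 4.34 against 3.87 log2 CPM (0.647). Both replicate 7 libraries came from litter F.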

How the results depend on the processing

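St8sia2 was higher in Capn15 KO in all 29 settings run, by 0.15 to 0.22 on the log2 scale. It passed the threshold in 3 of them: the likelihood ratio test (0.19), DESeq2 (0.19) and, chosen after seeing the data, the likelihood ratio test without litter F (0.17), each with 1 member called. With a replicate block in place of litter it was 0.19 with an edgeR FDR of 0.232, and leaving out 1 library gave 0.17 to 0.22, with FDR between 0.142 and 0.503. With litter in the fit, a brain left alone in its litter adds nothing to the genotype difference. Leaving out either brain of any litter but B thus gave nearly the same fold changes, and these settings are not all separate checks. No other member passed in any setting. The count of all genes called, 1 in the reported fit, was 34 with the likelihood ratio test, 22 with DESeq2, 0 with library totals or the replicate block, 2 without sex, 7 without litter F, 37 and 14 with the likelihood ratio test and DESeq2 without litter F, and 0 to 7 when 1 library was left out (7 without Capn15 KO replicate 7, 6 without WT replicate 7). The replicate block changed no other call except in the log2 ratios of St8sia2 over St8sia4 (0.18) and over Ncam1 (0.14), which passed with pairs kept but not without litter F. Leaving out 1 library gave 0.12 to 0.23 and 0.092 to 0.18 for these ratios, the lowest without WT replicate 7.

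St8sia4 changed sign in 15 settings: -0.00055 with DESeq2, -0.00059 with its size factors, -0.0056 with upper quartile factors, -0.0017 with library totals, -0.0061 with genotype alone, -0.0058 with genotype and sex, -0.0079 with genotype and litter, and in 8 of 14 settings that left out 1 library (-0.044 to 0.032). St8sia3 was at -0.00072 with DESeq2 without litter F and between -0.0022 and 0.044 with 1 library left out. Ncam2 ranged from -0.098 to 0.024 and changed sign in 2 of these, which left out WT or Capn15 KO replicate 5, the pair of litter D. Nfasc ranged from 0.028 without WT replicate 7 to 0.12, and L1cam from 0.049 without WT replicate 7 to 0.10. Leaving out Capn15 KO replicate 7, its litter partner, gave 0.031 for Nfasc and 0.052 for L1cam. The cause of these changes was not tested. The interaction of genotype and sex could not be estimated without litter F and was not run there. The lowest count of a member was 1585, for which counting error alone is 2.51%.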
